A study of Rattus norvegicus with 6 samples.

Results

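Krüppel-like factors are transcription factors whose messages were measured here in rat hippocampal slices with and without a block of inhibition. Every probe set whose only gene symbol is Klf2, Klf3, Klf4, Klf5, Klf6, Klf7, Klf9, Klf10, Klf13 or Klf15 was taken. This gave 28 of the 31099 probe sets on the array, for 10 of the 14218 genes that the annotation names with a single symbol. Of the 10 genes, 3 had 1 probe set and 7 had several. The rule uses gene symbols and no measured value, although the genes were listed with earlier results of these data known.

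The slices were organotypic cultures, in which hippocampal tissue of rat pups (postnatal day 4 in the labels) is kept alive outside the animal with its local circuits. In the gabazine group, cultures received 20 µM gabazine for 90 min, a blocker of the GABA-A receptor, which carries most fast inhibition. The control group was left untreated. Each of the 3 replicas halved the cultures of 2 littermates between the groups, so that the 3 gabazine arrays and the 3 control arrays form 3 pairs. Each array pools all cell types of whole slices.

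KLF proteins end in a row of zinc fingers that bind GC-rich and CACCC sequences, while their other parts recruit coactivators or corepressors. In cultured neurons several members set how far axons grow, and KLF4 and KLF9 restrain growth whereas KLF6 and KLF7 favour it. Some Klf genes belong to the immediate early genes, whose transcription starts within minutes of a stimulus, and others follow hormones such as glucocorticoids and thyroid hormone.

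RefSeq promoter sequences (build GRCr8) were available for 7 of the 10 genes, none of them Klf2, Klf10 or Klf13. In 4 of the 7, Klf4 among them, the start used by RefSeq lies inside the annotated gene, so these windows were not read as promoters. The other 3, whose start is the outermost of the gene, are shown as the 250 bases before the start. They belong to Klf9, Klf6 and Klf5, and were taken for this start and not for any response to gabazine. Capitals mark matches to the motifs searched, on either strand.
Klf9 promoter, chr1:230126396-230126645, plus strand: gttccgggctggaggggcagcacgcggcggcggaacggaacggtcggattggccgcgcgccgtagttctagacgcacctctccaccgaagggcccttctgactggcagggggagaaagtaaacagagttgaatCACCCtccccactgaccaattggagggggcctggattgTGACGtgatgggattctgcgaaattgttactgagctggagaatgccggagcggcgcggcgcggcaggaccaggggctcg
Klf6 promoter, chr17:69458479-69458728, minus strand: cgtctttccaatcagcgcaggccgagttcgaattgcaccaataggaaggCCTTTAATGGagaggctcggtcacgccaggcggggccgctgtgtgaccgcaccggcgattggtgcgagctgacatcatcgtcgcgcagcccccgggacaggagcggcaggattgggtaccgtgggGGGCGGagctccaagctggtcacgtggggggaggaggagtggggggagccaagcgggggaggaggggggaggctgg
Klf5 promoter, chr15:82471831-82472080, plus strand: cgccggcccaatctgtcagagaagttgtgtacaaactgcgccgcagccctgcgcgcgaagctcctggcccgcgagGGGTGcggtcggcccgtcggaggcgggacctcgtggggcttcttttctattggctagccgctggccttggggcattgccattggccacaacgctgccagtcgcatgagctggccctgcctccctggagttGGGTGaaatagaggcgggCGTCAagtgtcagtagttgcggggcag
The Klf9 sequence holds TGACG, the core of the cAMP response element (CRE), 79 bases before the start, and CACCC 117 bases before it. The Klf6 sequence holds a CArG box, the element bound by serum response factor, 201 bases before the start, and a GC box (GGGCGG) 76 bases before it. In the Klf5 sequence TGACG stands on the opposite strand 27 bases before the start, and CACCC on that strand 175 and 45 bases before it. None of the 3 holds the full CRE (TGACGTCA, which contains TGACG), the AP-1 site TGACTCA, a MEF2 site or TATAAA. Among the 33469 RefSeq windows of this kind, each 300 bases long, 21.2% hold TGACG, 54.9% CACCC, 33.1% the GC box and 1.64% a CArG box. The full CRE is in 1.83%, the AP-1 site in 4.63%, a MEF2 site in 3.29% and TATAAA in 14.2%. These matches describe letters and no binding was measured.

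Array values are the deposited log2 intensities. They were made with RMA (Robust Multi-array Average), a method that subtracts background, brings arrays to a common scale and merges the probes of each probe set. The deposited values nonetheless did not share 1 scale over the pairs. Medians of the arrays were 7.89 and 7.90 in pair 2, against 8.63 to 8.71 in pairs 1 and 3. A log2 ratio is gabazine minus control within a pair, so that 1 stands for a doubling. Where 1 value per gene is given, it comes from the probe set with the highest mean over the 6 arrays, called the brightest. The gabazine arrays enter this mean and can therefore affect the choice. The mean of the 3 ratios was tested with limma in a fit that blocks on the pair, and Benjamini-Hochberg adjustment covered the whole table. No probe set of the table passed an adjusted p of 0.05 (0% of 31099), and the smallest adjusted p was 0.467. The Klf probe sets had adjusted p-values from 0.747 to 0.968 in limma, so the p-values given for single probe sets are unadjusted and name no call.

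The 2 Klf genes with the largest differences were Klf2 and Klf4. Klf2 encodes a factor best known for keeping the endothelium of blood vessels quiescent under flow. Its brightest probe set, 1376569_at, read 11.00, 10.32 and 10.92 on the gabazine arrays of pairs 1, 2 and 3, against 9.67, 8.71 and 9.52 on the control arrays. Every gabazine array was above every control array. The log2 ratios were 1.33, 1.60 and 1.40, with a mean of 1.44 (standard error 0.07, 95% interval 1.21 to 1.68), or 2.72-fold (2.31 to 3.20). The mean was the 41st highest of the table, and by p-value the probe set was 6th, with an unadjusted p of 0.0003 in limma. On this probe set the 3 pairs differed by less than the shift they shared, which did not hold for the other Klf2 probe sets described further on. Its place as the brightest depends on the gabazine arrays. On the control arrays alone its mean was 9.30, below the 9.46 of 1375248_at, whose mean log2 ratio was 0.19.

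Klf4, one of the factors that reprogram somatic cells to pluripotency and a brake on axon growth in retinal ganglion cells, has a single probe set, 1387260_at. It read 9.81, 10.52 and 11.03 on the gabazine arrays, against 8.92, 9.30 and 9.69 on the control arrays. The groups did not overlap here either, although the lowest gabazine array, of pair 1, stood only slightly above the highest control array, of pair 3. The log2 ratios of 0.89, 1.22 and 1.34 had a mean of 1.15 (standard error 0.12, 95% interval 0.78 to 1.52), or 2.22-fold (1.72 to 2.87), with an unadjusted p of 0.0024 in limma. The mean ranked 70th in the table.

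On these probe sets the Klf2 ratio exceeded the Klf4 ratio in each pair, by 0.44, 0.38 and 0.06, with a mean of 0.29 (SD 0.21, n = 3). An exact two-sided sign-flip test gave p = 0.25, the smallest p that 3 pairs allow, so the test could not settle whether the genes differ. The order depends on the probe set, because the mean over the 5 Klf2 probe sets was 0.63, below the 1.15 of Klf4. Klf2 and Klf4 were the only Klf genes with a probe set whose gabazine arrays all exceeded the control arrays, 2 of 28 probe sets against 0.289% of all probe sets. This count compares arrays of different pairs, so the lower scale of pair 2 enters it along with the treatment. In RNA of whole slices, a higher value from more cells of a type cannot be told apart from more RNA per cell. Both genes are strongly expressed in endothelium, and the summed linear intensity of 9 endothelial and mural cell markers was 1424, 944 and 2135 on the gabazine arrays, against 1397, 841 and 2113 on the control arrays. The log2 ratios of these sums were 0.03, 0.17 and 0.01, and the median of the mean log2 ratios of the 9 markers was -0.06. In all 3 pairs 1 of the 9 was higher, against 7.79% of all genes, and 0 were lower, against 10.8%. The higher marker was the VEGF receptor gene Kdr (0.73, 1.08 and 0.09). The part of endothelial cells in the Klf2 and Klf4 values was not tested.

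**Figure D1:**
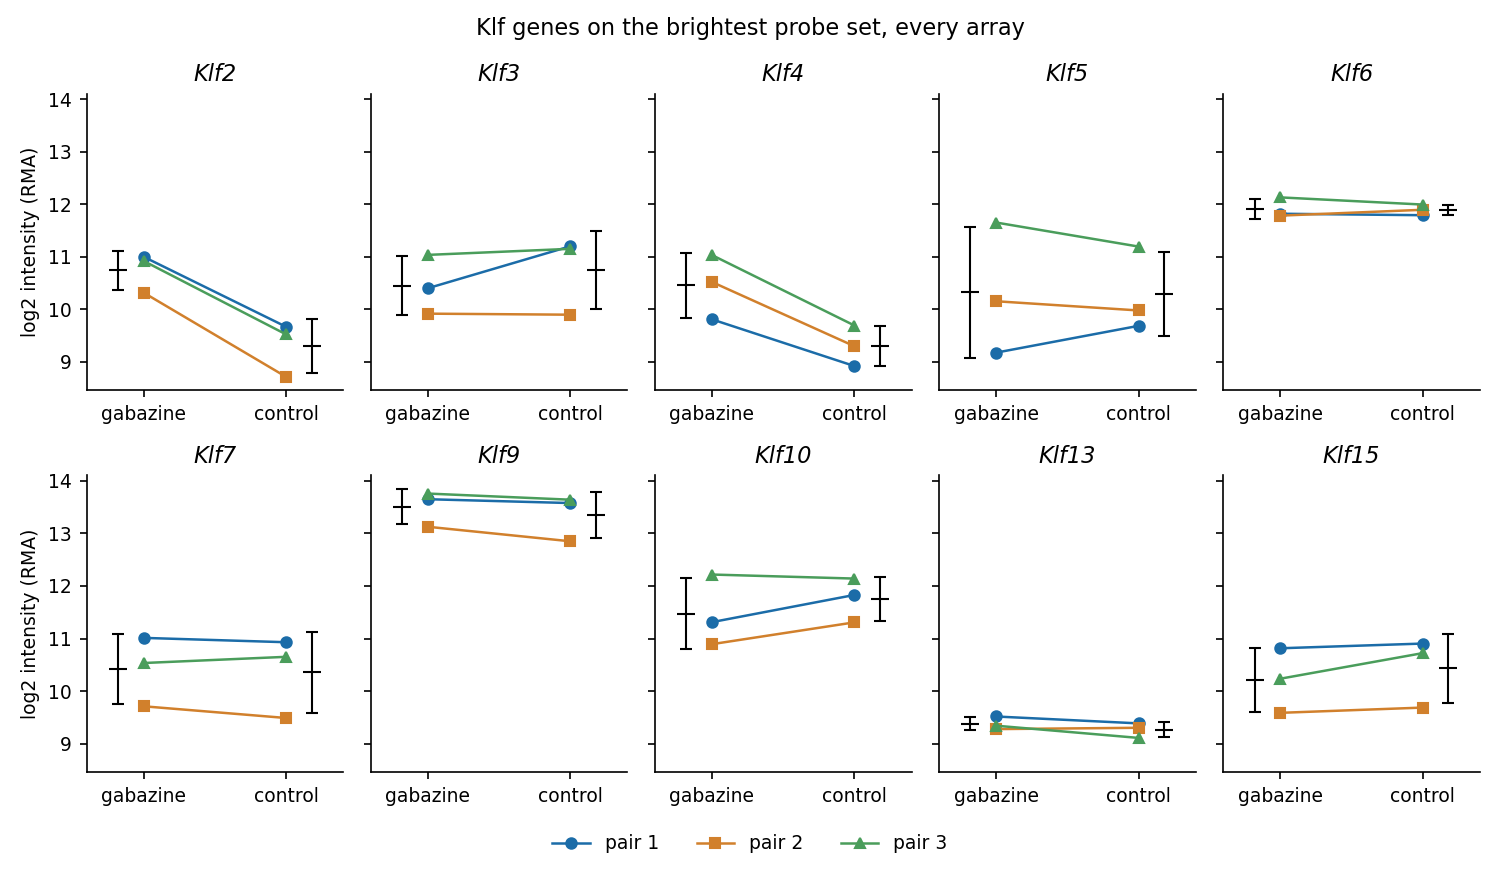
Log2 RMA intensity of the 10 Klf genes on the brightest probe set of each, with gabazine left and control right in each panel, lines joining the arrays of a pair, and black bars for the mean and SD of the 3 arrays of a group. For Klf2 and Klf4 every gabazine array lies above every control array, while the groups of the other 8 genes overlap.

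Klf9 and Klf13 are close relatives that repress transcription through the corepressor Sin3a, and Klf9 responds to thyroid hormone and glucocorticoids. Klf9 had the third gene value that was higher in every pair, although with each array centred on its median the ratio of pair 1 was -0.0033. Its brightest probe set, 1370209_at, read 13.65, 13.13 and 13.76 on the gabazine arrays, against 13.58, 12.85 and 13.64 on the control arrays. The groups overlapped, because the pair 2 arrays were the lowest of both groups, as were the medians of these arrays over all probe sets. The log2 ratios were 0.07, 0.28 and 0.12, with a mean of 0.16 (standard error 0.06), or 1.11-fold, and an interval of -0.03 to 0.34 that holds 0. Klf13, on its single probe set 1383013_at, read 9.52, 9.28 and 9.34 on the gabazine arrays, against 9.39, 9.30 and 9.11 on the control arrays. Its ratio was slightly below 0 in pair 2 and above 0 in the other pairs, with a mean of 0.11 (interval -0.11 to 0.33).

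Klf6 and Klf7 favour axon regrowth in fish and mice. On the brightest probe set Klf6 read 11.82, 11.78 and 12.13 on the gabazine arrays, against 11.79, 11.89 and 11.99 on the control arrays. Klf7 read 11.01, 9.71 and 10.53 on the gabazine arrays, against 10.93, 9.49 and 10.65 on the control arrays. For both genes the pairs disagreed in sign. The mean log2 ratio was 0.02 for Klf6 (interval -0.19 to 0.23) and 0.06 for Klf7 (interval -0.22 to 0.34), so that a 1.5-fold change lies outside both intervals. This holds for the brightest probe sets, since some dimmer ones of both genes had wider intervals that hold such a change.

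Klf3 recruits the corepressor CtBP, Klf10 is an early target of TGF-beta signalling, and Klf15 is a glucocorticoid-induced gene known from amino acid metabolism. All 3 had mean log2 ratios below 0 on the brightest probe set, none with an interval that leaves out 0. Klf15 read 10.81, 9.59 and 10.24 on the gabazine arrays, against 10.90, 9.69 and 10.72 on the control arrays. It was the only Klf gene lower in all 3 pairs on the brightest probe set, with ratios of -0.09, -0.10 and -0.49 (mean -0.23, interval -0.59 to 0.14), although cyclic loess put pair 1 at 0.03. Klf10 read 11.31, 10.89 and 12.22 on the gabazine arrays, against 11.83, 11.31 and 12.14 on the control arrays. Its ratios were -0.52 and -0.42 in pairs 1 and 2 and 0.08 in pair 3 (mean -0.29, interval -0.78 to 0.21). Klf3 read 10.40, 9.92 and 11.04 on the gabazine arrays, against 11.20, 9.90 and 11.15 on the control arrays. Its mean of -0.30 (interval -0.98 to 0.38) came mostly from pair 1, where the ratio was -0.80, against 0.02 and -0.12 in pairs 2 and 3.

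Klf5, a factor of dividing epithelial and smooth muscle cells, read 9.18, 10.15 and 11.65 on the gabazine arrays, against 9.69, 9.98 and 11.19 on the control arrays. Its ratios of -0.51, 0.18 and 0.46 spread over both signs (mean 0.04, interval -0.73 to 0.81). This was the widest spread between arrays among the 10 gene values. Over the 8 genes other than Klf2 and Klf4, the mean log2 ratio lay between -0.30 and 0.16, and all 8 intervals held 0.

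Counted by gene, 3 of 10 were higher in all 3 pairs (Klf2, Klf4 and Klf9), against 7.79% of all genes, and 1 of 10 was lower (Klf15), against 10.8%. An unadjusted p under 0.05 in limma was reached with a higher value by 2 of 10 (Klf2 and Klf4), against 2.37% of all genes, and with a lower value by 0 of 10, against 2.84%. The median log2 ratio of the 10 genes was 0.05, and that of all genes -0.01. Counted by probe set, 7 of 28 were higher in all 3 pairs, against 6.92% of all probe sets. They were 3 for Klf2, 2 for Klf5 and 1 each for Klf4 and Klf9, so that probe sets of 1 gene were counted more than once. Lower in all 3 pairs was 1 of 28, against 9.49%. An unadjusted p under 0.05 with a higher value was reached in limma by 3 of 28 (Klf2, Klf4 and Klf5), against 1.84%, and with a lower value by 0 of 28, against 2.68%. Their median log2 ratio was 0.15 over the 28, and 0 over the whole table.

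The probe sets of a gene often differed. Of the 7 genes with several, 4 had means above 0 on each of them (Klf2, Klf6, Klf7 and Klf9), and in 3 the signs differed (Klf3, Klf5 and Klf15). For Klf2 the means ran from 0.02 to 1.44. Probe set 1375248_at read 10.34, 9.07 and 9.56 on the gabazine arrays, against 9.84, 9.07 and 9.49 on the control arrays. It thus showed a clear difference in pair 1 only, with a mean log2 ratio of 0.19 (interval -0.24 to 0.62) that lies wholly below the interval of 1376569_at. The dimmer 1394068_x_at, whose suffix marks probes that can bind other sequences, had ratios of 0.54, 0.04 and 0.22, and 1386040_at had 0, 0.05 and 0. Probe set 1386041_a_at shares its source sequence with 1394068_x_at, and its ratios were 2.58, 0.53 and 0.60.

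Klf5 showed a similar disagreement. Its probe set 1398159_at had ratios of 0.27, 0.24 and 0.16 (mean 0.23, interval 0.10 to 0.35, unadjusted p = 0.0107 in limma), the third smallest p of the Klf probe sets. This probe set was dim, with a mean level of 6.39, above only 20.0% of all probe sets. On 1368363_at the ratios were 0.21, 0.24 and 0.79 (mean 0.41). Both were higher in each pair, whereas the brightest probe set and 1385961_at, with -0.67, 0.04 and 0.27, were lower in pair 1. For Klf3 the other probe sets had means of -0.06 (1378332_at, with -0.48, -0.03 and 0.32) and 0.08 (1393150_at, with -0.12, 0.14 and 0.22). Which of these sequences represents the transcript best was not tested.

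**Figure D2:**
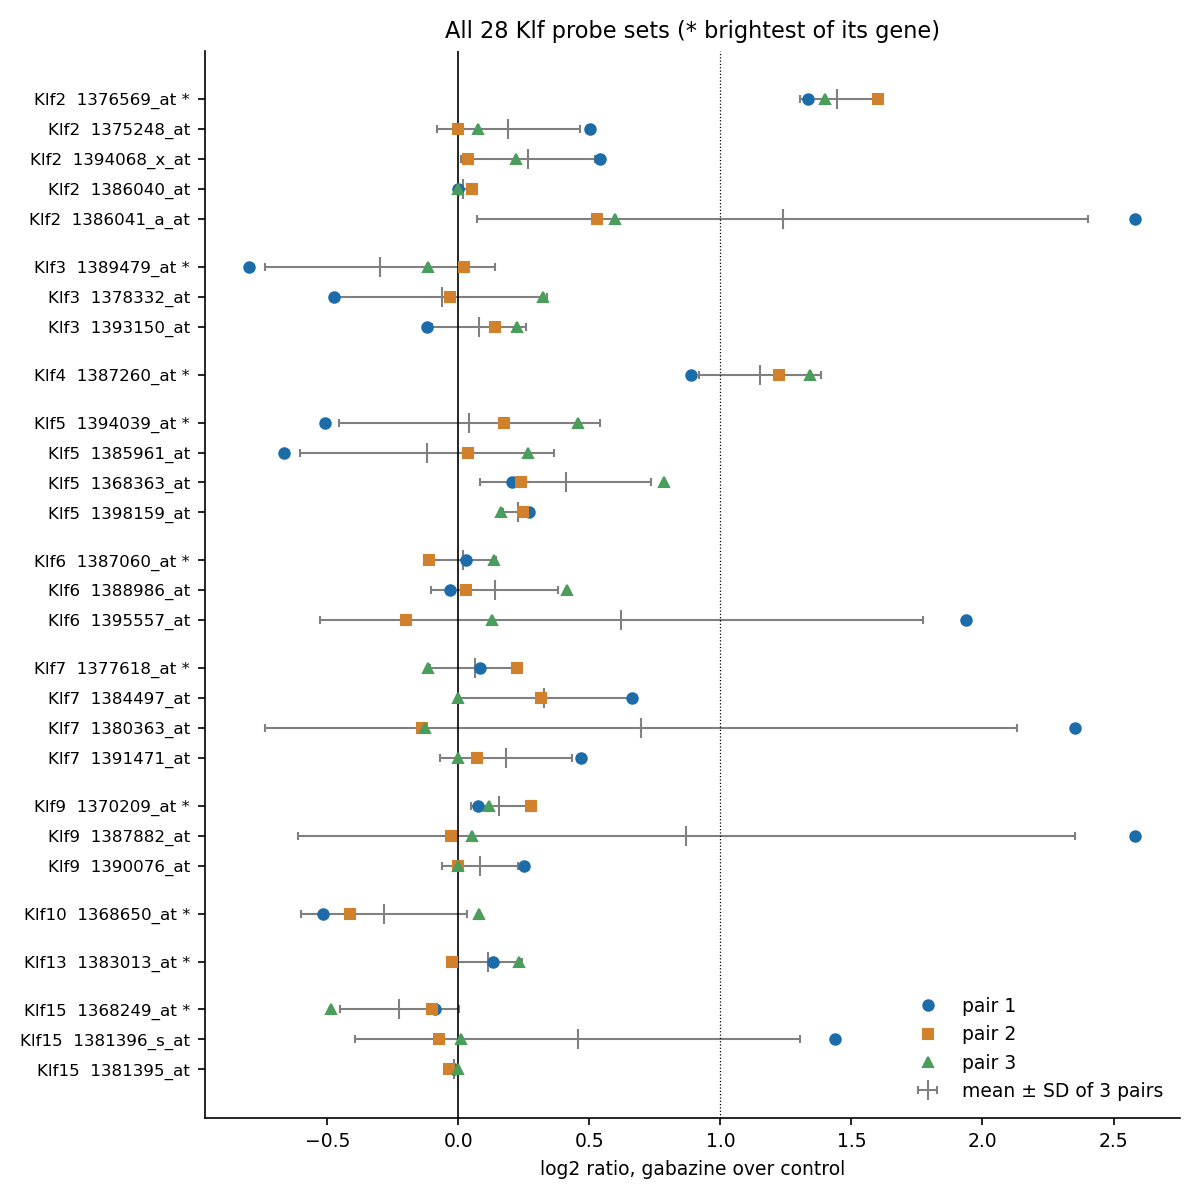
Log2 ratio of gabazine over control for all 28 Klf probe sets, with a symbol for each pair, grey bars for the mean and SD of the 3 pairs, an asterisk at the brightest probe set of a gene and a dotted line at a doubling. Klf2 1376569_at and Klf4 keep their 3 symbols together near or above the dotted line, while 5 other probe sets pass it in pair 1 alone.

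Pair 1 held the ratio of largest size at 16 of the 28 Klf probe sets, close to its 54.1% over the table. In 5 Klf probe sets the ratio passed 2-fold in pair 1 and in no other pair, 1 each of Klf2, Klf6, Klf7, Klf9 and Klf15. Klf9 1387882_at read 10.34, 7.24 and 8.41 on the gabazine arrays, against 7.76, 7.27 and 8.36 on the control arrays. Klf7 1380363_at read 8.40, 6.97 and 7.30 on the gabazine arrays, against 6.05, 7.11 and 7.43 on the control arrays. Both therefore had 1 gabazine array, that of pair 1, above all other arrays, with ratios of 2.58 and 2.35 there and between -0.14 and 0.05 elsewhere. Klf6 1395557_at (1.94, -0.20 and 0.13) and Klf15 1381396_s_at (1.44, -0.08 and 0.01) had the same shape. Klf2 1386041_a_at stood apart, since its smaller ratios in pairs 2 and 3 were also above 0. It was dim, however, with a mean level of 5.19, above only 6.77% of all probe sets. All 5 were below the array median of 8.63 on the control array of pair 1, at 5.11 to 7.86. None of the 5 is the brightest of its gene, and the brightest probe sets of Klf6, Klf7, Klf9 and Klf15 had pair 1 ratios of 0.03, 0.08, 0.07 and -0.09.

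This pattern was not particular to Klf genes. A 2-fold excess in pair 1 alone was found at 1187 of all probe sets (3.82%). The SD of the log2 ratios over the whole table was 0.475 in pair 1, against 0.247 and 0.230 in pairs 2 and 3. In pair 1 the 5′ probe sets of 3 rat control transcripts also had higher ratios than the 3′ ones, with a median excess of 0.50 on the log2 scale (0.38 to 1.70), against -0.02 and -0.08 in pairs 2 and 3. The summed intensity of 4 choroid plexus markers had a log2 ratio of 2.66 in pair 1, against 0.12 in each other pair. Ttr, the gene of transthyretin, carried this sum with 4.59 in pair 1, while Folr1 had 0.59 and Kl and Kcne2 had 0. The part of either in the Klf values of pair 1 was not tested. A mean ratio above 2 was found at 3 of 28 Klf probe sets (0.315% of all) and above 1.5 at 6 of 28 (1.52%). Without pair 1 the count above 1.5 was 2 of 28 (0.695%), made up of Klf2 1376569_at and Klf4.

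**Figure D3:**
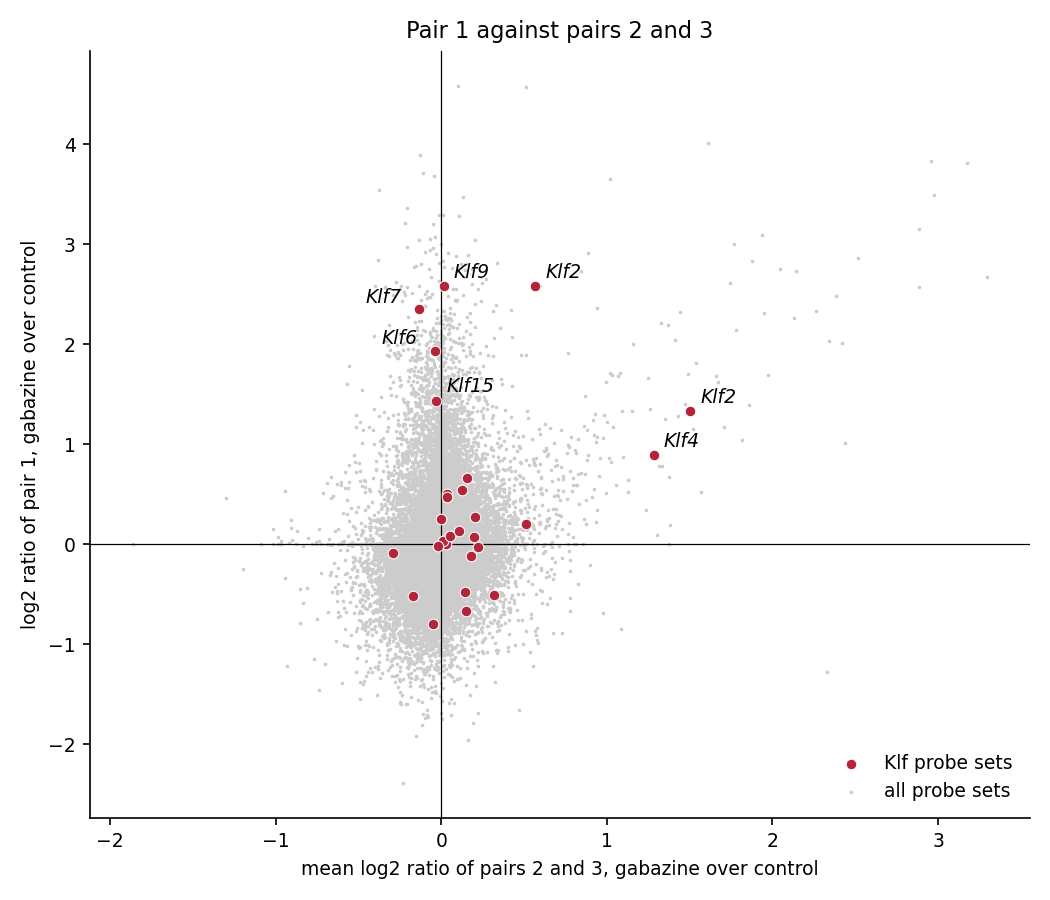
Log2 ratio of gabazine over control in pair 1 (vertical) against the mean of pairs 2 and 3 (horizontal), red for the 28 Klf probe sets and grey for all 31099. Klf2 1376569_at and Klf4 are high on both axes, while the other labelled points are high in pair 1 and, apart from Klf2 1386041_a_at, near 0 on the horizontal axis.

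The remaining probe sets had mean log2 ratios from -0.02 to 0.33, and all their intervals held 0. For Klf6, 1388986_at had ratios of -0.03, 0.03 and 0.41. For Klf7, 1384497_at had 0.66, 0.32 and 0 (mean 0.33, interval -0.19 to 0.84) and 1391471_at had 0.47, 0.07 and 0. Klf9 1390076_at had 0.25, 0 and 0, and Klf15 1381395_at had -0.02, -0.04 and 0. A ratio of exactly 0 means that both arrays of a pair hold the same deposited value. This occurred at 5 Klf probe sets (1, 1 and 5 of them in pairs 1, 2 and 3), and at 16.1%, 24.1% and 25.7% of the table in the same pairs.

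Genes linked to the KLF proteins were read in the same way, on the brightest probe set of each gene. Their counts are to be read against the 7.79% of all genes that were higher and the 10.8% that were lower in all 3 pairs. Of 16 other Klf and Sp genes, 8 were measured, and 0 of these were higher and 2 lower in all 3 pairs, with a median log2 ratio of -0.12. Klf11, the closest relative of Klf10 and likewise a TGF-beta target, was the lowest. It read 8.79, 9.05 and 10.38 on the gabazine arrays, against 9.42, 9.47 and 10.62 on the control arrays, a mean log2 ratio of -0.43 (unadjusted p = 0.022 in limma). Sp4, a factor of neurons, had the highest mean of 0.41, from ratios of 1.28, -0.04 and 0, so that this too was a value of pair 1.

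Among 19 of 20 measured regulators of Klf genes, 2 were higher and 2 lower in all 3 pairs, with a median of -0.03. Srf, serum response factor, was the highest, with ratios of 0.56, 0.62 and 0.57 (mean 0.58), and Nr3c1, the glucocorticoid receptor, the lowest, with -0.91, 0.09 and -0.20. Among 16 cofactors and proteins of KLF turnover, all measured, 2 were higher and 2 lower in all 3 pairs, with a median of 0.03. Stat3, a partner of KLF4, was the highest (0.75, -0.04 and 0.46) and Ep300, a histone acetyltransferase, the lowest (-0.82, -0.08 and -0.20). Among 19 of 20 measured genes reported as KLF targets in various tissues, 3 were higher and 1 lower in all 3 pairs, with a median of 0.08. Smad7, an inhibitor of TGF-beta signalling, was the highest (0.22, 0.09 and 0.58) and Dcx, a protein of young neurons, the lowest (-0.42, 0.10 and -0.50). Over these 4 lists no mean log2 ratio reached that of Klf2 or Klf4, and 0 members passed an adjusted p of 0.05 in limma. An unadjusted p under 0.05 was reached with a higher value by 0, 2, 1 and 0 members of the 4 lists in the order given, against 2.37% of all genes, and with a lower value by 1, 2, 1 and 0, against 2.84%.

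**Figure D4:**
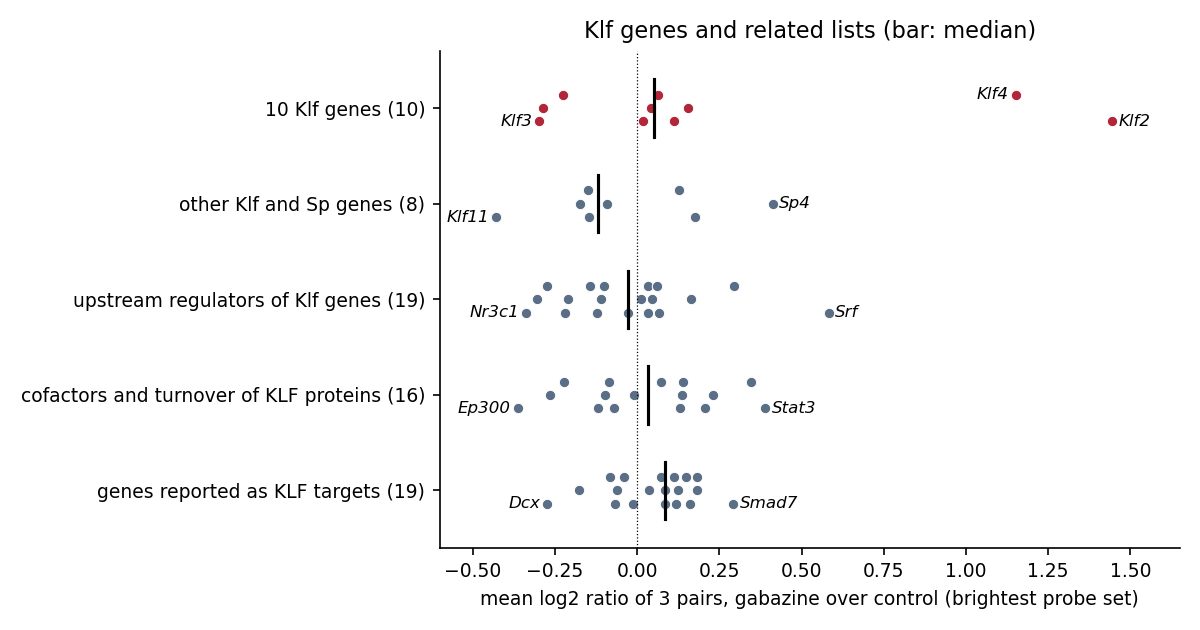
Mean log2 ratio (gabazine over control) for the 10 Klf genes and the measured members of 4 related lists, 1 point per gene on its brightest probe set, with the number of genes in brackets and a bar at the median. Klf2 (1.44) and Klf4 (1.15) stand to the right, and the highest gene of the related lists is Srf (0.58).

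The genes with 3 pair ratios most like those of a Klf gene were found by the Euclidean distance over the 3 log2 ratios. For Klf2 1376569_at they were Fbxo33 (distance 0.225, ratios 1.15, 1.53 and 1.51), Rgs2 (0.428) and Rasgrf1 (0.465). For Klf4 they were Rasl11b (distance 0.157, ratios 0.78, 1.19 and 1.45), Nr4a3 (0.385) and Fbxo33 (0.438). Fbxo33, a subunit of a ubiquitin ligase, thus appears beside both. For Klf9 they were Tmem44 (0.047), Cst3 (0.048) and Rpa1 (0.050), at small distances because ratios near 0 are common. The likeness rests on 3 pairs only.

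Levels of neuron and astrocyte markers ranged widely. Snap25, a protein of synaptic terminals, read between 13.8 and 14.4 on the gabazine arrays and between 13.7 and 14.5 on the control arrays. Gfap, an astrocyte filament, read between 14.8 and 15.2 for gabazine and between 14.7 and 15.1 for control. Of the same lists, Gad2, which makes GABA, read between 6.88 and 8.46 on the gabazine arrays and between 6.73 and 7.28 on the control arrays, and Gjb6, an astrocyte connexin, between 7.78 and 9.53 for gabazine and between 6.44 and 8.93 for control. The log2 ratios of summed intensity in pairs 1, 2 and 3 were -0.13, 0.20 and 0.03 for 8 neuronal markers, -0.07, 0.07 and 0.07 for 5 of astrocytes, 0.26, 0.31 and 0.10 for 4 of oligodendrocytes, and -0.01, -0.07 and 0.18 for 8 of microglia. For 5 markers of fibroblasts and meninges they were 0.15, 0.32 and -0.32. Such sums weigh bright markers most and can hide dimmer ones. Large ratios in 1 pair occurred for Syt1 (2.53, -0.05 and -0.12), Gad2 (1.73, -0.34 and -0.03) and Camk2a (-0.40, 1.26 and -0.17). Gjb6 likewise had 0.59, 2.15 and -0.04. The median ratios of the 8 neuronal markers were -0.004, 0.08 and -0.02. Array medians were 8.71, 7.89 and 8.68 for gabazine and 8.63, 7.90 and 8.71 for control in pairs 1, 2 and 3, so that the scale of pair 2 differs and the ratios within pairs carry the comparison.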

How the data were processed

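RNA of 3 gabazine-treated and 3 untreated samples was hybridized to 6 Affymetrix RAT2302 arrays. The authors deposited log2 intensities made with RMA, which the submitters' processing notes name, with a version not given in the sources used here. Whether all arrays were normalized together is unknown as well. No detection measure comes with the table, so signal over background is unknown, and precision is limited by the number of arrays. No further scaling was applied, and 0 columns were left out.

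Probe sets were named through the platform annotation: 20832 carry 1 symbol, 436 several and 9831 none, and none was named from several. Ratios within pairs were tested with limma 3.58.1 (R 4.3.3), using lmFit and eBayes with a block for each pair, and adjusted by Benjamini-Hochberg over 31099 probe sets. The fit was tested on simulated data. The pairing follows the design, in which a replica splits the cultures of littermates. Deviations from the group means had correlations of 0.794, 0.664 and 0.853 within pairs 1, 2 and 3. The replicas are described as biological.

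All Klf probe sets are reported. Of each related list (other Klf and Sp genes, regulators, cofactors, targets) the members with the highest and the lowest mean are named, as are the 3 genes nearest in their ratios to Klf2, Klf4 and Klf9. Marker lists covered neurons, astrocytes, oligodendrocytes, microglia, endothelial and mural cells, choroid plexus, and fibroblasts and meninges. Members and lists were chosen with earlier results of these data known. Promoters came from RefSeq (GRCr8). Alternatives were a fit without pairing, omission of each pair, 3 further scalings, removal of the 40% dimmest probe sets, a trended robust eBayes, other rules for the probe set of a gene, tied pairs left out and the arithmetic mean of the ratios.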

Additional observations from a re-analysis of the deposited data

How the results depend on the processing

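Klf2 (1376569_at) and Klf4 kept a ratio above 0 under each alternative run, with means of 1.37 to 1.5 for Klf2 and 1.06 to 1.28 for Klf4 when a pair was left out. Without the replicate block, limma called 14 probe sets of the table and 0 of the Klf probe sets, the Klf2 mean was again 1.44, and no Klf call changed. The adjusted count of Klf probe sets was 0 under all alternatives, and the other scalings moved the median of all probe sets by less than 0.02.

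Leaving out 1 pair turned the sign of 9 Klf probe sets, whose means then ran from -0.25 to 0.14 (Klf3 1378332_at), -0.17 to 0.32 (Klf5 1394039_at), -0.31 to 0.15 (Klf5 1385961_at), -0.042 to 0.082 (Klf6 1387060_at), -0.00026 to 0.22 (Klf6 1388986_at), -0.036 to 1.03 (Klf6 1395557_at), -0.018 to 0.15 (Klf7 1377618_at), -0.13 to 1.11 (Klf7 1380363_at) and -0.034 to 0.72 (Klf15 1381396_s_at). Klf2 1386040_at was -0.0039 after quantile normalization and -0.0041 after cyclic loess. Klf15 was 0.071 as the mean of its probe sets and 0.46 on the one with the largest difference, against -0.23 on the brightest. The mean of all probe sets was 0.63 for Klf2 (1.44 on the brightest), 0.26 for Klf6 (0.018), 0.32 for Klf7 (0.063) and 0.37 for Klf9 (0.16), and the probe set with the largest difference gave 0.62, 0.70 and 0.87 for Klf6, Klf7 and Klf9.

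The 7 Klf probe sets higher in all pairs became 11 after quantile normalization, 13 after cyclic loess and 11 with tied pairs left out. They were 4 of the 19 that remained without the dimmest 40%, and 10 to 13 with 1 pair left out. Lower in all pairs were 2 in place of 1 after quantile normalization and with tied pairs left out, and 2 to 4 with 1 pair left out. Leaving out 1 pair gave 2 to 6 in place of 3 with a mean ratio above 2, 2 to 7 in place of 6 above 1.5, and 0 to 1 in place of 0 with a lower value at an unadjusted p under 0.05. The arithmetic mean of the ratios put 5 above 2. By gene, 2 in place of 3 were higher in all pairs with each array centred on its median, which took out Klf9, while 4 were with cyclic loess and 4 to 5 with 1 pair left out. With 1 pair left out, 1 to 2 in place of 1 were lower, and 0 to 1 in place of 0 lower at that p, and cyclic loess left 0 genes lower in all pairs. The causes were not tested. For the mean ratio above 1.5 without pair 1, the share of all probe sets is given further up. For the other counts of this paragraph that share was not taken. Counts can rise for any gene when fewer pairs need to agree or ties are dropped, so these are not read as a result about Klf genes.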
